A study of Mus musculus with 6 samples.

Results

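Hepatic steroid dehydrogenases and reductases are described here across 6 mouse livers. The set holds 10 genes, chosen by name from the Hsd3b, Hsd11b, Hsd17b, Akr1c and Srd5a families with earlier results of these same arrays known, out of 18193 genes that a probe set names alone. Of the 10, 9 were measured, through 14 probe sets that each name 1 gene: Hsd3b5, Hsd3b7, Hsd11b1, Hsd17b2, Hsd17b10, Hsd17b11, Hsd17b12, Hsd17b13 and Akr1c6. Expression of Srd5a1, which encodes a steroid reductase, was not analysed here, and only the sequence around its start is described. Where a gene had several probe sets, the one selected on the highest mean over all 6 arrays stands for it, and no probe set shared with another gene names a member. Because the members were put together with results in view, the number of them that changed is a description of this set.

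The livers came from male C57BL/6J mice at 8 weeks of age, with 2 arrays in each of 3 groups. Wild-type mice were either fed chow or left without food for 24 h, and Cnot3+/- mice, which carry 1 intact allele of a CCR4-NOT deadenylase subunit, were also left without food for 24 h. No Cnot3+/- group was fed, so genotype was compared after fasting only. Cnot3 itself read 9.27 and 9.32 in fasted wild-type liver and 9.40 and 9.16 on the arrays labelled Cnot3+/-, a log2 difference of -0.01 (SE 0.13). Where the allele was altered is not given, so this probe set need not check the genotype, and directions between genotypes rest on the labels. Levels are RMA values on the log2 scale, where 1 unit is a doubling, and the median probe set of an array lay between 5.59 and 5.64. Each array is labelled a biological replicate, and having 2 per group limits the precision of every value.

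Hydroxysteroid dehydrogenases exchange a hydroxyl for a keto group on the steroid ring, using NAD(H) or NADP(H), and so switch steroid hormones between active and inactive forms. Liver is a main site of this work: it clears androgens and estrogens, regenerates active glucocorticoid and turns cholesterol into bile acids. Several enzymes that carry the Hsd17b name act mainly on lipids, such as the fatty acyl chains lengthened in the endoplasmic reticulum, or sit on lipid droplets or in mitochondria.

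After the fast, Hsd3b5 read below the median probe set in wild-type liver, at least 80.8-fold under the mean of the fed arrays. Hsd17b13 and Hsd17b10 rose by 1.62-fold and 1.51-fold, calls that were lost when every probe set was tested (limma adjusted p = 0.0654 and 0.0697). Akr1c6, Hsd17b12 and Hsd17b2 read lower and Hsd17b11 higher in fasted wild-type liver without passing the test, and the log2 differences of Hsd3b7 (0.16) and Hsd11b1 (-0.06) were the smallest of the 9. By limma's moderated test at an adjusted p under 0.05 (Benjamini-Hochberg, over all genes), 2 of the 9 measured members rose, against 1.87% of all genes, and 1 fell, against 3.15% of all genes. In 8 of the 9 members the fed and fasted wild-type arrays did not overlap, a state shown by 50.8% of all genes; members that passed the test are part of that count. Between the fasted groups none of the 9 members passed. In bulk liver, fewer cells of a type and less RNA per cell cannot be told apart.

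**Figure D1:**
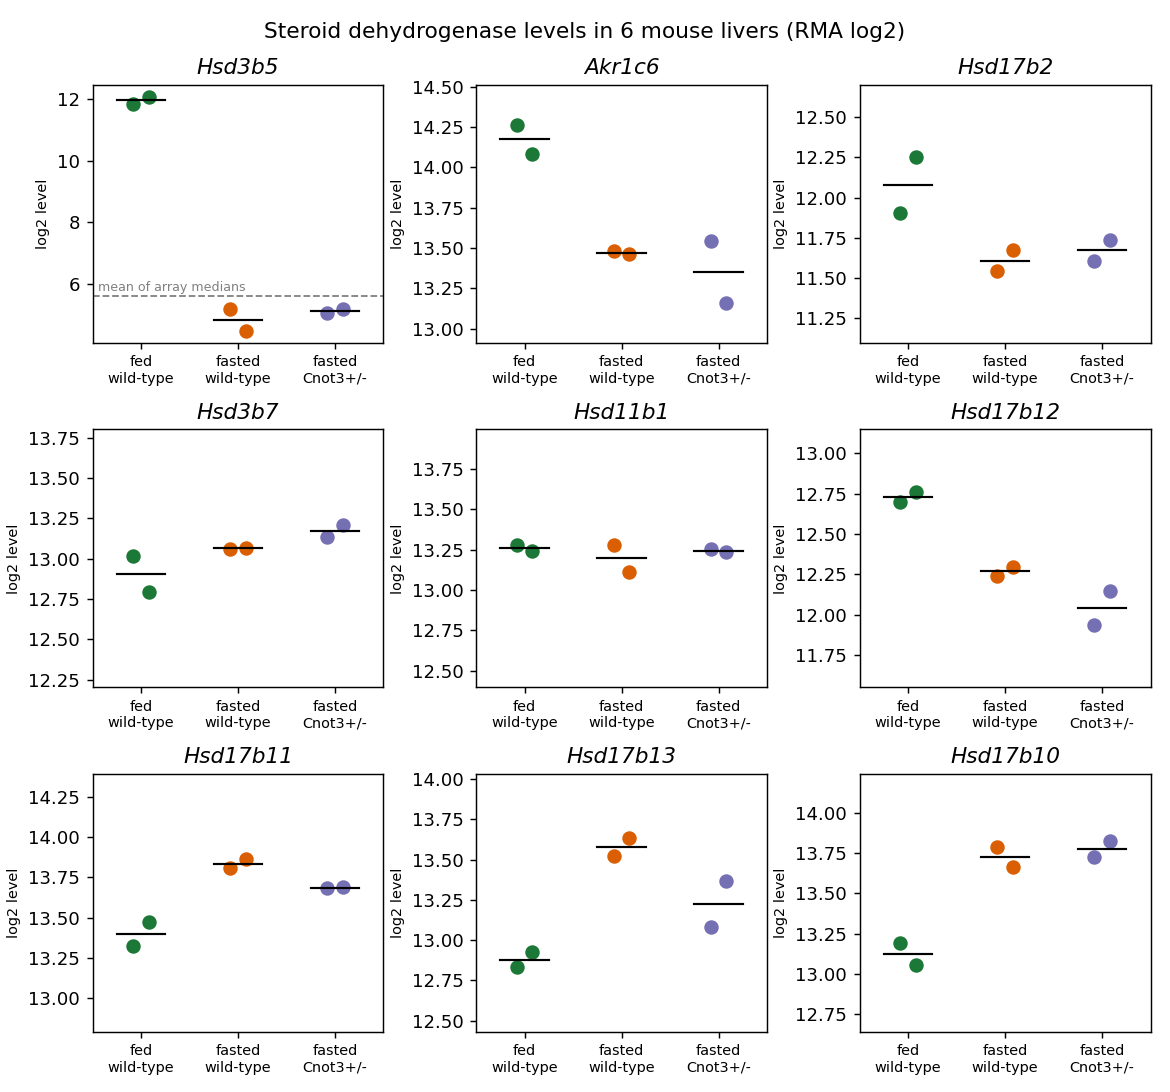
Log2 level (y axis, RMA; each panel has its own range) of the 9 measured steroid dehydrogenases on each array (points) of the fed wild-type group and the fasted wild-type and Cnot3+/- groups, with the mean of the 2 arrays as a bar. Hsd3b5 drops from 11.96 to below the mean of the array medians (dashed line), and Hsd17b13, Hsd17b11 and Hsd17b10 sit higher in both fasted groups.

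The stretches upstream of 5 members are shown because these genes passed the test in at least 1 comparison with fed liver, Hsd3b5, Akr1c6 and Hsd17b12 downward and Hsd17b13 and Hsd17b10 upward. Each holds 250 bases before to 50 bases after the RefSeq start of the gene in build GRCm38.p6, read along the gene. They lie at chr3:98645485-98645784 (minus strand) for Hsd3b5, chr13:4434093-4434392 (plus) for Akr1c6, chr2:94157860-94158159 (minus) for Hsd17b12, chr5:103977339-103977638 (minus) for Hsd17b13 and chrX:152001646-152001945 (plus) for Hsd17b10. Capitals mark matches to any of 6 short motifs searched on both strands.
Hsd3b5: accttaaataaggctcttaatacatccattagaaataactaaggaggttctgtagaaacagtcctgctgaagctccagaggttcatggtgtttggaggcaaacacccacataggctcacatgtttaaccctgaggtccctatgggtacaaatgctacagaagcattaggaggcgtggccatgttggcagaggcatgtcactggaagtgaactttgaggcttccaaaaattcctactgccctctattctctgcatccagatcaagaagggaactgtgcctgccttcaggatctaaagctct
Akr1c6: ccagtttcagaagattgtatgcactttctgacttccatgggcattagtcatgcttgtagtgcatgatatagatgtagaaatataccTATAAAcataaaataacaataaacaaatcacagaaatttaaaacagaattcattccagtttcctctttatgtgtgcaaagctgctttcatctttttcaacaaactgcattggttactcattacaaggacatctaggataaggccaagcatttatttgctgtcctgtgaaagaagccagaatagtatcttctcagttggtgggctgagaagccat
Hsd17b12: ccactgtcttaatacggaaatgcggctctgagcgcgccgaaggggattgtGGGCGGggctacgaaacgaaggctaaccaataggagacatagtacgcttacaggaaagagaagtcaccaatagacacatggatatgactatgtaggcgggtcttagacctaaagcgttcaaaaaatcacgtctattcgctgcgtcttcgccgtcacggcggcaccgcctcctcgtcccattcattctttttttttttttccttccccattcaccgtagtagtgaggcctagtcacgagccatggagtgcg
Hsd17b13: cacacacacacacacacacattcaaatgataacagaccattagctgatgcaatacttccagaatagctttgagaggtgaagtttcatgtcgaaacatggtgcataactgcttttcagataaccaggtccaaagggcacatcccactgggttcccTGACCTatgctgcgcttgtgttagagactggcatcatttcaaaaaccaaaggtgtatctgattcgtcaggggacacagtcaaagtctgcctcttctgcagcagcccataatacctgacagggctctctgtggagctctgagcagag
Hsd17b10: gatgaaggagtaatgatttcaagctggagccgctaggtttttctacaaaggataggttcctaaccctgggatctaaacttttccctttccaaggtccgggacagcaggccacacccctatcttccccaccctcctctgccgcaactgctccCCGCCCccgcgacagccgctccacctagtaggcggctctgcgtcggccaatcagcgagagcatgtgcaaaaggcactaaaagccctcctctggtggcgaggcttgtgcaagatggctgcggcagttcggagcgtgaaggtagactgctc

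The motifs were the TATA box TATAAA, the STAT5 core TTCNNNGAA, the nuclear receptor hexamer AGGTCA, the forkhead core TGTTTAC, the GC box GGGCGG and the glucocorticoid receptor core ACANNNTGT. None of the 6 has a match in the Hsd3b5 window. Akr1c6 holds a TATA box match from base -164 to -159, counted back from the start. Such a match on either strand, anywhere in the window, is found in 13.6% of 32851 RefSeq windows of this length. Hsd17b13 holds a hexamer match on the opposite strand from -96 to -91. A hexamer match on either strand, anywhere in the window, is found in 16.3% of windows. Hsd17b10 and Hsd17b12 each hold a GC box match, found in 35.7% of windows. Of the members not printed, Hsd11b1 holds a forkhead match (3.65% of windows), Hsd3b7 a STAT5 match (8.30%) and a GC box, Hsd17b11 a GC box and Srd5a1 4 GC boxes; no glucocorticoid receptor core (6.85% of windows) was found in any. A match is a string of letters and not a shown binding site. The windows differ in base composition: CpG pairs number 0 in Akr1c6, 1 in Hsd3b5 and 3 in Hsd17b13, against 15 in Hsd17b10, 18 in Hsd17b11, 23 in Hsd17b12 and 24 in Srd5a1, with a median of 7 over all windows. The GC share runs from 36% in Akr1c6 and 46% in Hsd3b5 to 57.7% in Hsd17b10 and 63% in Srd5a1, with a median of 52.7% over all windows. A window was found for 9 of the 10 listed genes, Hsd17b2 being the exception.

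Among the enzymes of sex steroid metabolism, Hsd3b5 encodes a male-biased liver enzyme of the Hsd3b family that works as a ketosteroid reductase. Its level was 11.84 and 12.08 in fed wild-type liver, 5.17 and 4.47 after the fast, and 5.06 and 5.19 in the livers labelled Cnot3+/-. All 4 fasted arrays lie below the median probe set of their own array, and both fed arrays lie far above it. The measured log2 difference was -7.14 for fasted against fed wild-type (SE 0.23, limma adjusted p = 9.63e-05) and -6.83 for fasted Cnot3+/- against fed wild-type (SE 0.23, adjusted p = 0.000132). Since a level under the array median was not shown to be above background, the fall is better given as a bound: against the array medians Hsd3b5 was at least 80.8-fold lower in fasted wild-type and at least 81.3-fold lower in fasted Cnot3+/- liver. These bounds take the mean of the fed arrays and leave out the error of that mean. The call held when any 1 of the 6 arrays was left out, with an adjusted p of at most 0.00276 in the wild-type comparison. Between the fasted groups Hsd3b5 differed by 0.31 (95% confidence interval -0.23 to 0.84), with both levels near the floor of the array.

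Akr1c6 encodes an aldo-keto reductase of liver that reduces the keto group of sex steroids. It read 14.26 and 14.08 in fed wild-type liver, 13.48 and 13.46 in fasted wild-type liver, and 13.55 and 13.16 on the arrays labelled Cnot3+/-. Every fasted array was below both fed arrays. The log2 difference was -0.70 for fasted against fed wild-type (SE 0.16, adjusted p = 0.0516), just short of the threshold, and -0.82 for fasted Cnot3+/- against fed wild-type (SE 0.16, adjusted p = 0.0249), a fall to 0.566 of the fed level. With the variance allowed to follow the level, the wild-type difference passed (adjusted p = 0.0208), as it did without either Cnot3+/- array (0.0304). The Cnot3+/- call was lost without fed replicate 1 (0.112), without fed replicate 2 (0.0699), without Cnot3+/- replicate 2 (0.0849) and without either fasted wild-type array (0.0564).

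Hsd17b2 encodes the oxidising counterpart, which turns testosterone and estradiol into their less active keto forms. Its level was 11.90 and 12.25 in fed wild-type, 11.54 and 11.67 in fasted wild-type, and 11.61 and 11.74 in fasted Cnot3+/- liver. The fasted arrays all lay below the fed ones, and the fed arrays stood further apart than those of either fasted group. Neither the fasting difference of -0.47 (SE 0.15, adjusted p = 0.143) nor that of fasted Cnot3+/- against fed liver, -0.41 (SE 0.15, adjusted p = 0.175), passed.

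Relatives of these enzymes were taken from a list of 31 other hydroxysteroid dehydrogenases and reductases, of which 26 were measured. In fasted wild-type liver 6 of the 26 fell and 1 rose, with a median log2 difference of -0.18 against 0.02 over all genes. With single arrays left out, 3 to 6 fell, 3 of them without either fasted wild-type array, and the median ran from -0.27 to -0.07, the latter without fasted wild-type replicate 1. Hsd3b3, a close paralog of Hsd3b5, fell by 1.31 (SE 0.14, adjusted p = 0.00445), and Hsd3b2, which is the next protein-coding gene to Hsd3b5 on chromosome 3 in the RefSeq annotation, fell by 2.12 (SE 0.39, adjusted p = 0.0296). The call for Hsd3b2 was lost without any 1 of the 4 wild-type arrays (adjusted p up to 0.156). A probe set shared by Hsd3b6, Hsd3b3 and Hsd3b2 read 12.38 and 12.32 in fed, 10.75 and 10.76 in fasted wild-type, and 11.01 and 10.53 in fasted Cnot3+/- liver. The Hsd3b genes are near-identical in parts, and the brightest probe set of Hsd3b3 is of a kind marked as cross-hybridising, so signal cannot be assigned among Hsd3b2, Hsd3b3 and Hsd3b6 with certainty; without such probe sets the call for Hsd3b3 was lost. Hsd3b1, the form of steroid-making glands, lay under the array medians on all 6 arrays.

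Akr1c20, the neighbour of Akr1c6 on chromosome 13, read 11.92 on both fed arrays, 10.03 and 10.36 in fasted wild-type liver, and 10.29 and 9.83 on the arrays labelled Cnot3+/-. Its fall of 1.72 after the fast (SE 0.19, adjusted p = 0.00466) was called also without any 1 array. Akr1c14, another aldo-keto reductase of steroids, fell by 1.10 (SE 0.15, adjusted p = 0.01), a call lost without fasted wild-type replicate 1 or replicate 2 (adjusted p up to 0.0882). A probe set shared by Akr1c12, the neighbour of Akr1c6 on the other side, and Akr1c13 differed by 0.0014 after the fast (SE 0.11, adjusted p = 0.997 over all probe sets). The other fall on the list, besides Akr1d1, was that of Nsdhl, a dehydrogenase of cholesterol synthesis (log2 -3.00, SE 0.25), and the rise was that of Hsdl2, a peroxisomal member of the family (1.19, SE 0.20). The call for Hsdl2 was lost without any 1 of the 4 wild-type arrays (adjusted p up to 0.131).

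**Figure D2:**
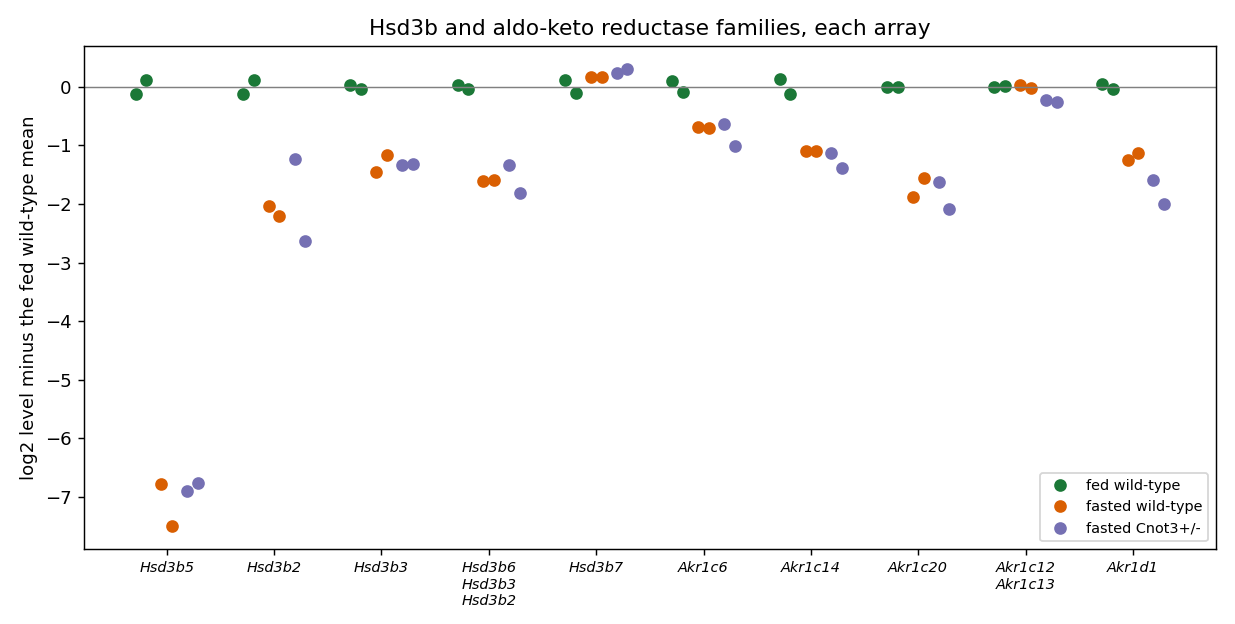
Log2 level of each array minus the mean of the 2 fed wild-type arrays (y axis) for genes of the Hsd3b and aldo-keto reductase families, with names stacked where a probe set is shared by several genes; each point is 1 array. Hsd3b5 falls by at least 6.34 units, its fasted points being under the array medians, and the probe sets of Hsd3b2, Hsd3b3, Akr1c14, Akr1c20 and Akr1d1 fall by 1.10 to 2.12 in wild-type liver, while Hsd3b7 and the shared Akr1c12 and Akr1c13 probe set stay near 0.

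Male-biased genes were counted because Hsd3b5 is one of them in mouse liver, where the pulsed release of growth hormone in males sustains them. Of 23 measured genes of the growth hormone axis and male-biased expression, Hsd3b5 left out, 5 fell and 2 rose after the fast, and the median was -0.49; without single wild-type arrays 2 to 4 fell and 0 rose, with 2 falls without either fasted array. The bile acid and steroid uptake carrier Slco1a1 fell by 2.12 (SE 0.24, adjusted p = 0.00586) and Nudt7, a peroxisomal hydrolase, by 1.49 (SE 0.16, adjusted p = 0.00482), and both were called with any 1 array left out. Cish, a feedback inhibitor induced by growth hormone, fell by 1.69, while Elovl3 rose by 1.22; these calls were lost in 2 and 4 of the 6 fits that leave out an array. The other falls were Ghr, the growth hormone receptor (-0.96), and Cyp2u1 (-0.80), and the other rise was Bcl6, a repressor of male liver (1.89), each lost without any 1 of the 4 wild-type arrays. Of 11 measured female-biased genes 3 rose and 0 fell in wild-type fasting, with a median of 0.23. At an unadjusted limma p under 0.05, 4 rose and 1 fell. Fasted Cnot3+/- against fed liver had 3 higher and 1 lower by the test, with a median of -0.03. In wild-type fasting, leaving out fed replicate 1 gave a median of 0.43 and leaving out fed replicate 2 one of 0.06. That median was 1.79 over the 5 genes brighter than the median gene. Fmo2 differed by 1.79 (adjusted p = 0.00625) and was called without any 1 array, whereas the calls of Trim24 (0.94) and Acot3 (2.72) were lost in 4 and 3 of these fits. Other steps of steroid clearance, the hydroxylases and conjugating enzymes, had 0 of 14 genes past the test in wild-type fasting (1 up and 1 down with a variance trend). Fasted Cnot3+/- against fed liver had 1 of the 14 higher and 0 lower by the test. In wild-type fasting 6 of the 14 had an unadjusted limma p under 0.05. The median there was -0.01, and it ran from -0.12 to 0.05 without single fasted wild-type arrays. The smallest p values there belonged to the glucuronosyltransferase Ugt2b1 (-1.13, adjusted p = 0.0691), the hydroxylase Cyp7b1 (-0.86, 0.0843), the sulfotransferase Sult2a8 (-0.68, 0.108) and Cyp2d9 (0.38, 0.136).

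The 5 genes whose 6 values ran most like those of Hsd3b5 were Thrsp (Pearson r = 0.997 over 6 arrays), Fasn, Ssr1, Cmah and Cyp4f14 (r = 0.994 for the last), out of 1449 genes brighter than the median gene with arrays at least 1 unit apart. Thrsp and Fasn belong to fat synthesis. The 6 arrays form a fed and a fasted cluster, so any gene with a clean fall on fasting scores high, and r is a description only.

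In glucocorticoid handling, Hsd11b1 encodes the endoplasmic reticulum enzyme that regenerates active glucocorticoid from its inert keto form. Its level was 13.28 and 13.24 in fed wild-type, 13.28 and 13.11 in fasted wild-type, and 13.25 and 13.23 in fasted Cnot3+/- liver. These values overlap in every pairing of the groups. The fasting difference was -0.06 with a 95% confidence interval from -0.34 to 0.22, so the fasted level lay between 0.789 and 1.16 times the fed level. Between the fasted groups the interval ran from -0.23 to 0.33. H6pd, which supplies NADPH to Hsd11b1, read 11.92 and 11.96 in fed, 12.33 and 12.26 in fasted wild-type, and 12.48 and 12.53 in fasted Cnot3+/- liver; it did not pass in wild-type mice (0.36, adjusted p = 0.136) and passed against fed liver on the arrays labelled Cnot3+/- (0.57, adjusted p = 0.0272).

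Of 16 genes of glucocorticoid activation and response, 3 rose and 2 fell in fasted wild-type liver, with 14 of 16 differences positive and a median of 0.54. It moved to 0.31 when fed replicate 2 was left out and to 0.76 when fed replicate 1 was, and 0 genes passed without fasted wild-type replicate 1. Serpina6, the glucocorticoid carrier of plasma, read 12.83 and 12.90 in fed and 10.17 and 10.19 in fasted wild-type liver, a fall of 2.69 (SE 0.29, adjusted p = 0.00466) that missed the threshold without fasted wild-type replicate 1 (0.0515). The receptor target Fkbp5 rose by 0.97 (SE 0.16, adjusted p = 0.021), and Cebpd and Mt1 by 2.23 and 2.42; each of these 3 calls was lost in 2 or 3 of the fits without an array. The other fall was that of Nr3c1, the receptor itself (-0.63, adjusted p = 0.0391), which was lost without any 1 of the 4 wild-type arrays.

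In bile acid synthesis, Hsd3b7 encodes the dehydrogenase that acts on the sterol ring after its first hydroxylation. It read 13.02 and 12.79 in fed wild-type, 13.06 and 13.07 in fasted wild-type, and 13.13 and 13.21 in fasted Cnot3+/- liver. The groups stand in that order without overlap, but the 2 fed arrays differ from each other by more than the fasted groups differ. No comparison passed: the fasting difference was 0.16 (SE 0.13, adjusted p = 0.578) and that of fasted Cnot3+/- against fed liver 0.27 (SE 0.13, adjusted p = 0.293). Its only probe set has an ID that marks sequence shared among transcripts.

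Of 15 other genes of the bile acid route, all measured, 3 rose and 2 fell after the fast, with a median of 0.08; without fasted wild-type replicate 1 the count was 1 up and 0 down and the median 0.04, and without replicate 2 it was 1 and 1, with 0.13. Those that fell were Akr1d1, the reductase that follows Hsd3b7 (-1.19, SE 0.16, adjusted p = 0.01, and lost without any 1 of the 4 wild-type arrays, at up to 0.0965), and Akr1c14. The rises were Cyp8b1, the sterol hydroxylase that sets the share of cholic acid (2.38, SE 0.13, called without any 1 array), the thioesterase Acot8 (0.90, SE 0.13) and Acox2, which shortens the side chain (0.80, SE 0.15); the last 2 were lost in 3 of the fits without an array. Cyp7a1, the rate-limiting enzyme, read 11.47 and 12.46 in fed, 8.14 and 10.00 in fasted wild-type, and 10.86 and 9.64 in fasted Cnot3+/- liver, and its wild-type difference of -2.89 just missed the threshold (SE 0.65, adjusted p = 0.052). Within 1 route, in wild-type fasting, Hsd3b7 differed by less than the spread of its fed arrays while genes acting after it lay on both sides of 0.

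Among the members that act on lipids, Hsd17b13 encodes a lipid droplet protein of hepatocytes with retinol dehydrogenase activity. It read 12.83 and 12.92 in fed wild-type, 13.52 and 13.63 in fasted wild-type, and 13.08 and 13.37 in fasted Cnot3+/- liver. The arrays labelled Cnot3+/- thus fell between the other groups, without overlap. The rise in wild-type liver was 0.70 (SE 0.14, adjusted p = 0.0357), or 1.62-fold with a 95% confidence interval from 1.30 to 2.04, and fasted Cnot3+/- against fed liver gave 0.35 (SE 0.14, adjusted p = 0.207). These comparisons share the fed arrays, and the direct difference between the fasted groups was -0.35 (interval -0.68 to -0.03, unadjusted p = 0.0376, adjusted p = 0.863), which did not pass over all genes. The call in wild-type liver was lost without any 1 of the 4 wild-type arrays, with an adjusted p between 0.116 and 0.199, while the difference stayed between 0.65 and 0.75. A second, dimmer probe set lies close to the array medians and differed by 0.53 after the fast (adjusted p = 0.0843 over all probe sets).

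Hsd17b11 encodes a related lipid droplet dehydrogenase and is the next protein-coding gene to Hsd17b13 on chromosome 5. Its level was 13.32 and 13.47 in fed wild-type, 13.81 and 13.86 in fasted wild-type, and 13.68 and 13.69 in fasted Cnot3+/- liver. It showed the order of groups seen for Hsd17b13, fed below Cnot3+/- below fasted wild-type, with smaller steps. The fasting difference was 0.44 (SE 0.12, adjusted p = 0.0868; 0.0248 with a variance trend) and that between the fasted groups -0.15 (SE 0.12, adjusted p = 0.876). On the second probe set the arrays read 9.71 and 9.88, then 10.26 and 10.82, then 9.64 and 10.04, so the Cnot3+/- arrays overlapped the fed ones there (-0.70 against fasted wild-type, SE 0.22, adjusted p = 0.836). The third stayed between 3.87 and 4.18, under the array medians.

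Hsd17b12 encodes the ketoacyl-CoA reductase of fatty acid elongation. It read 12.70 and 12.76 in fed wild-type, 12.24 and 12.30 in fasted wild-type, and 11.94 and 12.15 in fasted Cnot3+/- liver, a stepwise order without overlap. The difference was -0.46 in wild-type liver (SE 0.12, adjusted p = 0.0892) and -0.69 for fasted Cnot3+/- against fed liver (SE 0.12, adjusted p = 0.0209), a fall to 0.621 of the fed level. That call was lost without any 1 of the other 5 arrays, at adjusted p from 0.0502 to 0.0996, and kept without Cnot3+/- replicate 2 (0.0389). The second probe set read 11.67 and 11.54, then 11.40 and 11.63, then 10.42 and 11.16, with a wild-type fasting difference of -0.09 (SE 0.24, adjusted p = 0.915 over all probe sets). Both probe sets had the Cnot3+/- arrays lowest, and on the second these differed from fasted wild-type by -0.72 (SE 0.24, limma adjusted p = 0.836).

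**Figure D3:**
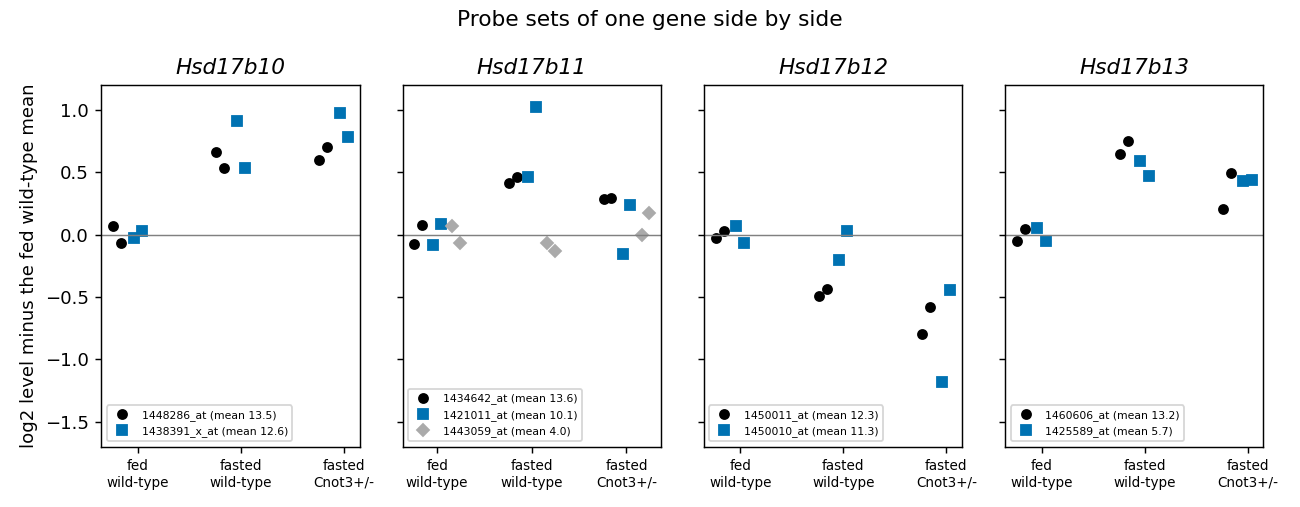
Log2 level minus the fed wild-type mean of the same probe set (y axis) on each array for the 4 members with several probe sets, the brightest in black circles and the others in blue squares and grey diamonds. The 2 probe sets of Hsd17b10 and of Hsd17b13 read above the fed mean in both fasted groups, whereas for Hsd17b12 in fasted wild-type liver the brightest reads below the fed mean (-0.46, not past the test) and the other lies nearer 0 (-0.09).

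The lists of their routes gave the surroundings. Of 20 measured lipid droplet genes besides Hsd17b11 and Hsd17b13, 5 rose and 0 fell, with a median of 0.06. The median changed sign without fed replicate 1 (-0.0066), moved to 0.21 with fed replicate 2 left out and to 0.28 with fasted wild-type replicate 1 left out, and was 0.36 over the 17 genes brighter than the median gene. These were Cidec, Pnpla2, Plin2, Plin5 and Fitm2, and Pnpla2, the triglyceride lipase, rose by 1.79 (SE 0.16) and the coat protein Plin2 by 1.35 (SE 0.18). Cidec and Pnpla2 were called without any 1 array, while Plin2, Plin5 and Fitm2 lost the call in 3, 2 and 4 of those fits. Of 15 measured elongation and desaturation genes besides Hsd17b12, 4 fell and 2 rose, with a median of -0.29. The median was -0.16 without fed replicate 2 or fasted wild-type replicate 1, and -0.05 without probe sets of shared sequence. Elovl6, the elongase of saturated chains, fell by 2.23 (SE 0.16, adjusted p = 0.00163; called without any 1 array) and the desaturase Fads1 by 1.08 (SE 0.11, lost without fasted wild-type replicate 1, adjusted p = 0.0538). The desaturases Scd1 and Scd2 fell by 0.82 and 1.53, and Elovl3 and Elovl5 rose by 1.22 and 0.59; these calls were lost in 2 of the fits without an array for Scd2 and in 4 for the others. The other enzymes of the cycle itself did not pass: Hacd3, a dehydratase, differed by 0.60 (adjusted p = 0.0534) and Tecr, the last reductase, by -0.29 (adjusted p = 0.224).

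Hsd17b10 encodes a mitochondrial dehydrogenase that works in isoleucine breakdown and is also a subunit of mitochondrial RNase P. It read 13.19 and 13.06 in fed wild-type, 13.79 and 13.66 in fasted wild-type, and 13.73 and 13.82 in fasted Cnot3+/- liver. Both fasted groups lay above the fed arrays and overlapped each other. It rose by 0.60 in wild-type liver (SE 0.12, adjusted p = 0.04), 1.51-fold with an interval from 1.24 to 1.85, and by 0.65 in fasted Cnot3+/- against fed liver (SE 0.12, adjusted p = 0.0244). Between the fasted groups it differed by 0.05 (interval -0.24 to 0.34). A second probe set, of the cross-hybridising kind, gave 0.72 and 0.88 for the same comparisons with fed liver. The wild-type call was lost without any 1 of the 4 wild-type arrays (adjusted p from 0.0954 to 0.237), and the Cnot3+/- call without any 1 array (0.0522 to 0.118).

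The routes of Hsd17b10 had no other gene past the test upward. Of 16 measured genes of isoleucine breakdown and mitochondrial RNase P, 0 rose and 1 fell in limma's test, with a median of 0.06 against 0.02 over all genes, and an unadjusted p under 0.05 was reached by 2 upward and 2 downward; the median was 0.10 without fed replicate 2. Trmt10c and Prorp, the other RNase P subunits, differed by 0.08 (adjusted p = 0.804) and 0.22 (adjusted p = 0.522). Acat1, which cleaves the product of Hsd17b10, differed by 0.38 (adjusted p = 0.213), and Hadha and Dbt by 0.55 and -0.53 (0.0714 and 0.155). The gene that fell was Pcca, a subunit of propionyl-CoA carboxylase (-0.55, adjusted p = 0.0383), and it too lost the call without any 1 of the 4 wild-type arrays.

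**Figure D4:**
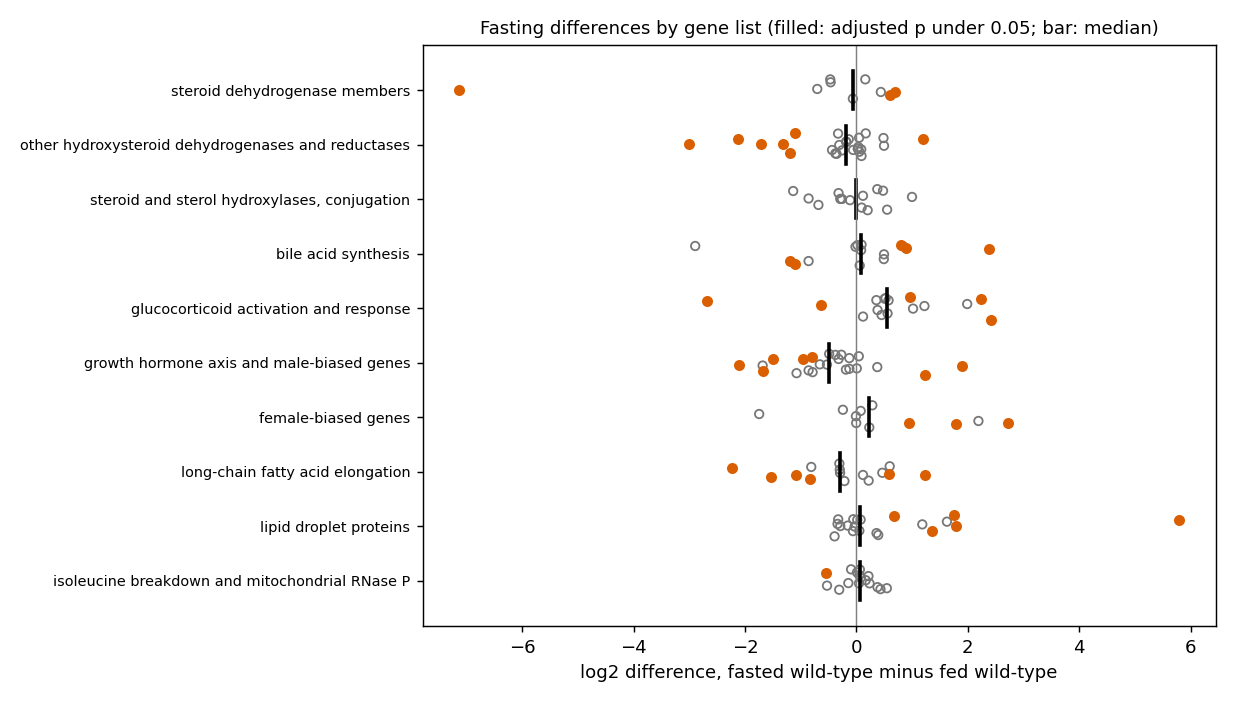
Log2 difference between fasted and fed wild-type liver (x axis) of each measured gene (points) in the 9 measured steroid dehydrogenases and in 9 lists of related genes, with the list median as a bar and filled points for genes past an adjusted p of 0.05. Most members lie within 1 unit of 0, Hsd3b5 lies far to the left, and the glucocorticoid list has the highest median, 0.54.

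Set against fed liver, the fasted arrays labelled Cnot3+/- had 1 of the 9 members higher (Hsd17b10; 3.88% of all genes) and 3 lower (Hsd3b5, Akr1c6 and Hsd17b12; 3.68% of all genes), and 8 of 9 did not overlap with the fed arrays (48% of all genes). This comparison and that of fasted with fed wild-type use the same fed arrays. Of these 4 calls, that of Hsd3b5 held and that of Hsd17b10 was lost whichever array was left out. Those of Akr1c6 and Hsd17b12 depended on which array was left out.

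Directly between the fasted groups, 0 of 9 members and 0 of 18193 genes (0%) passed limma's test, with or without a variance trend, and an unadjusted p under 0.05 was reached by 1011 genes (997 with the trend). Among the members only Hsd17b13 had an unadjusted p under 0.05. In 4 of 9 members (Hsd3b7, Hsd17b11, Hsd17b12 and Hsd17b13) the fasted groups did not overlap, against 36% of all genes. On the brightest probe sets, the differences of the 8 members measured above the array medians ran from -0.35 for Hsd17b13 to 0.11 for Hsd3b7. Hsd3b5 lay under the medians in both fasted groups. The second probe sets of Hsd17b12 and Hsd17b11 differed more, by -0.72 (SE 0.24) and -0.70 (SE 0.22). Neither passed (limma adjusted p = 0.836 for each, over all probe sets). The second probe sets of Hsd17b13 and Hsd17b10 differed by -0.10 and 0.16. For the brightest probe sets of Hsd17b13, Hsd17b12 and Akr1c6, the intervals reached down to -0.68, -0.52 and -0.49, so differences of those sizes lie within the error of these arrays. In the list of other dehydrogenases and reductases, too, 0 of 26 genes passed between genotypes in limma's test, 2 had an unadjusted p under 0.05, and the median was -0.12 (-0.19 when arrays were centred on brighter genes).

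**Figure D5:**
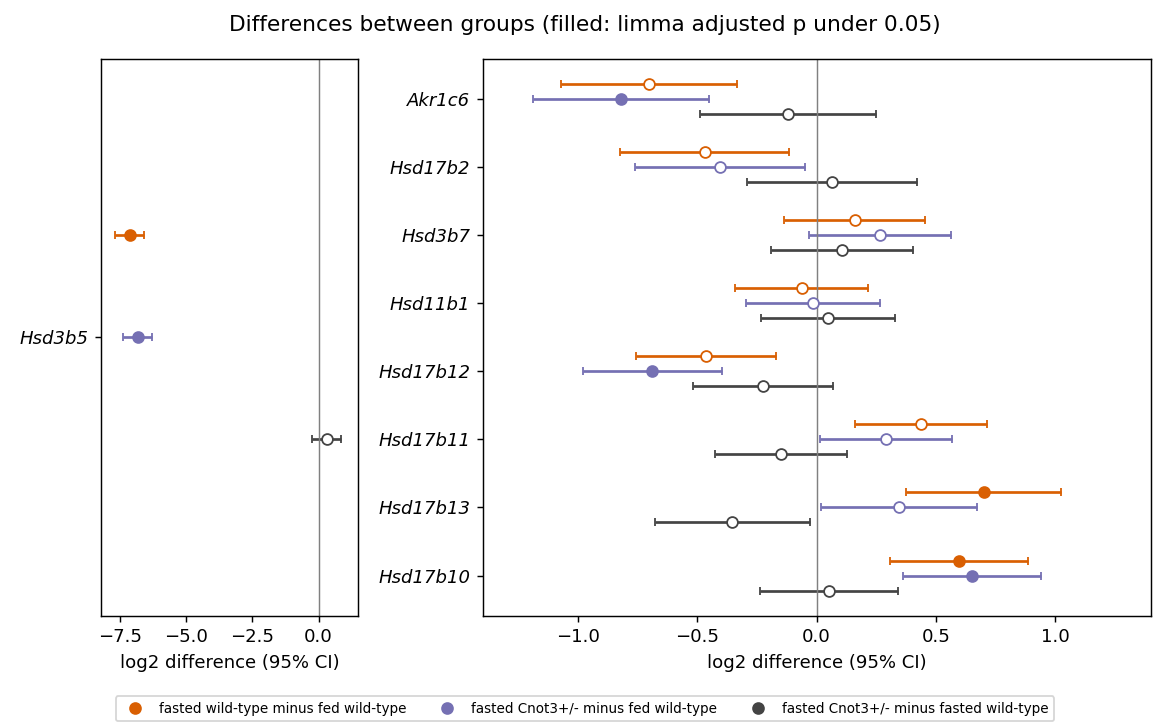
Log2 difference (x axis) with its 95% confidence interval for each measured member (y axis) in the 3 comparisons between groups, filled where limma's adjusted p was under 0.05; Hsd3b5 has its own panel because of its range. The intervals between the fasted groups (dark grey) cross 0 for 8 of the 9 members, all but Hsd17b13.

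Markers fixed for the cell types of the sample place these values. All 9 measured hepatocyte markers lay above the median probe set on all 6 arrays, and 5 of 8 markers of steroid-making gland cells (Cyp11a1, Cyp11b1, Cyp11b2, Hsd17b3 and Hsd3b1) lay at or below it on all 6. The other 3 gland markers, Star, Cyp17a1 and Cyp21a1, lay above the median probe set on all 6. Kupffer cell markers read higher in both fasted groups: their summed log2 level over 9 genes was 81.3 to 82.9 in fed, 86.1 to 86.8 in fasted wild-type and 88.6 to 93.5 in fasted Cnot3+/- liver. By limma's adjusted p, 0 of these 9 passed in wild-type fasting and 0 between the fasted groups. All 9 differences were positive in both comparisons, and an unadjusted limma p under 0.05 was reached by 4 and 5 of the 9. In fasted Cnot3+/- against fed liver 5 of the 9 passed, all upward. Markers of hepatocytes around the central vein, 9 genes, summed to 106.8 to 107.6 in fed and 101.9 to 103.7 in fasted wild-type liver. The fasted Cnot3+/- sums, 103.0 to 107.0, overlapped the fed ones. These markers were mixed: in wild-type fasting Cyp1a2, Lect2 and Rgn fell and 0 rose by the test, and 3 of 9 differences were positive. Glul and Cyp2e1 differed by -0.08 and 0.11. At an unadjusted limma p under 0.05, 2 of the 9 rose and 4 fell. Against fed liver, the arrays labelled Cnot3+/- had 2 of the 9 higher and 2 lower by the test. Periportal hepatocyte markers, 6 genes, summed to 76.0 to 77.9 in fed, 78.1 to 80.0 in fasted wild-type and 78.8 to 81.2 in fasted Cnot3+/- liver. By the test 0 of these 6 passed in wild-type fasting, and 1 rose in fasted Cnot3+/- against fed liver. Stellate cell markers over 7 genes summed to 58.4 to 58.9, then 54.2 to 54.4, then 53.8 to 56.7, and sinusoidal endothelial markers over 6 genes to 49.4 to 49.7, then 51.7 to 52.1, then 50.4 to 51.9. The stellate markers were mixed too: in wild-type fasting 3 of the 7 fell and 1 rose by limma's test. Fasted Cnot3+/- against fed liver had 2 of the 7 lower and 1 higher. Among markers of other cells, Col1a1 of stellate cells, Krt7 of bile ducts, Adipoq and Lep of fat cells, and Hba-a1 and Slc4a1 of red cells lay at or below the array medians on all 6 arrays. Above the medians on all 6 arrays lay 6 of 7 stellate cell markers and 3 of 4 bile duct markers. The same held for 2 of 4 fat cell markers and 1 of 3 red cell markers. The part of these shifts in the members' values was not tested.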

How the data were processed

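RNA from 6 livers was hybridised to Affymetrix mouse arrays as biotin-labelled cRNA, per the labels' protocols. The authors deposited log2 levels, and the submitters' processing notes name RMA; its version is not given in the sources used here. No detection calls were used, so a level at or under the array median was treated as not shown to be above background.

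Of 45101 probe sets, 34945 name 1 gene in the platform annotation, 932 name several, 9160 are unnamed and 64 are controls; the brightest single-gene probe set stood for each of 18193 genes. All 6 arrays were fitted with 3 group means in limma 3.58.1 on R 4.3.3 (residual df 3, prior df 4.24), with Benjamini-Hochberg adjustment over all genes and calls at 0.05. The fit was tested on simulated data. SE is the moderated standard error, and intervals are at 95%. Promoter windows and gene order come from RefSeq, GRCm38.p6. Figures were drawn with matplotlib 3.10.9.

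The members and lists were chosen with earlier results of these data known. Named are all members, Cnot3, of each list up to 4 genes with the smallest fasting p, and the 5 genes most like Hsd3b5; further genes (such as Hsd3b2, Hsdl2, Cyp7a1, H6pd, Nr3c1, Fitm2, Scd1, Elovl5, Bcl6, Cyp2u1, Hacd3, Tecr, Trmt10c, Prorp, G0s2 and markers) were named after their values were seen. Alternatives were other probe set choices, scalings, filters and fits, and leaving out each array.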

Additional observations from a re-analysis of the deposited data

How the results depend on the processing

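Among the members' values under alternative settings, 354 kept their direction and side of the threshold, 29 lost a call, 8 gained one and 11 changed sign, all 11 in differences that had not passed. For fasted against fed wild-type, 1 member (Hsd3b5) passed when every probe set was tested and 5 with a variance trend (Hsd17b11 and Akr1c6 besides), and with single arrays left out 1 to 4 members and 137 to 1033 genes, against 3 and 913. The lowest gene counts were 137 without fasted wild-type replicate 1 and 193 without replicate 2, 287 without fed replicate 2 and 458 without fed replicate 1. For fasted Cnot3+/- against fed wild-type, fitting only the groups compared left 1 member and 857 genes, against 4 and 1375, and leaving out single arrays left 1 to 2 members and 597 to 929 genes (597 without fed replicate 2, 696 without Cnot3+/- replicate 2, 743 without fed replicate 1 and 857 without either fasted wild-type array). Between the fasted groups 0 to 2 genes passed with an array left out, 1 without Cnot3+/- replicate 1 and 2 without replicate 2. Hsd3b7 has no value without probe sets of shared sequence, where 8 members remain.

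Signs changed as follows. After centring on brighter genes, Hsd11b1 differed by -0.0203, Hsd17b2 by -0.00384 and Hsd17b10 by -0.0169 between the fasted groups; after cyclic loess Hsd11b1 differed by 0.00334 between fasted Cnot3+/- and fed liver. With single arrays left out, ranges that include 0 were -0.15 to 0.0221 (Hsd11b1, wild-type fasting), -0.0328 to 0.00328 (Hsd11b1, Cnot3+/- against fed) and, between the fasted groups, -0.0473 to 0.66 (Hsd3b5), -0.0368 to 0.13 (Hsd11b1), -0.0114 to 0.11 (Hsd17b10), -0.000711 to 0.13 (Hsd17b2) and -0.31 to 0.0731 (Akr1c6). The cause was not tested. Of the list genes named, Hsd3b2, Akr1d1, Acox2, Acot3, Trim24, Cebpd, Mt1, Nr3c1, Fitm2, Scd1, Elovl5, Cyp2u1 and Pcca also lost the fasting call when probe sets were averaged or all tested, and Nudt7 and Pnpla2 without probe sets of shared sequence.

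With the replicate number as a block, 4 members and 1206 genes passed in wild-type fasting, Akr1c6 being the addition (adjusted p = 0.0325), 4 members and 1708 genes for Cnot3+/- against fed, and none between the fasted groups. The labels state no pairing, and deviations of same-numbered arrays correlated at 0.45 between the fasted groups, 0.04 between the wild-type groups and -0.01 between fed and Cnot3+/-.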

Other observations

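G0s2, an inhibitor of the triglyceride lipase and the next protein-coding gene to Hsd11b1 on chromosome 1, was at 9.60 in fed replicate 1 and at 12.63 in the other fed liver. The fasted wild-type arrays read 12.67 and 12.82 for G0s2, and those labelled Cnot3+/- 11.15 and 11.64, so its fasting difference of 1.63 did not pass (SE 0.82, limma adjusted p = 0.345). Pck1, a glucocorticoid target, read 13.93 and 11.74 on these fed arrays, in the opposite order. Hsd11b1 read 13.28 and 13.24 there.

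Cyp17a1, a steroid hydroxylase of glands that is female-biased in mouse liver, read 7.38 and 7.67 in fed, 10.18 and 9.25 in fasted wild-type, and 9.65 and 11.17 in fasted Cnot3+/- liver. Its rise passed against fed liver on the arrays labelled Cnot3+/- (2.88, limma adjusted p = 0.0164) and just missed in wild-type liver (2.19, adjusted p = 0.0503). Star, another gland gene, read 6.85 and 6.60 in fed and 6.65 on both fasted wild-type arrays. Mt2, a metallothionein on the glucocorticoid list, read 8.32 and 8.22 in fed, 10.83 and 9.69 in fasted wild-type, and 12.69 and 11.26 in fasted Cnot3+/- liver, a difference of 1.72 between the fasted groups that did not pass (adjusted p = 0.863).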
